A study of Xenopus tropicalis with 2 samples.

Results

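Upstream promoter flank peaks are sites of thyroid hormone receptor (TR) ChIP signal whose summit lies just before a gene start without reaching the core promoter. A peak was placed here when every transcription start site (TSS) within 1000 bp of its summit lay on 1 strand, the nearest TSS was more than 200 and up to 1000 bp away, and the summit was upstream of it in the direction of transcription. The rule used positions alone. Of the 6302 peaks, 411 met it (6.52%, exact 95% binomial interval 5.92 to 7.16%), and they were nearest to 397 genes. The chromatin came from the middle part of the brain with the preoptic area, hypothalamus and thalamus of wild-type tadpoles of the frog Xenopus tropicalis, staged NF62 by Nieuwkoop and Faber and kept at 25 °C. It was cross-linked with formaldehyde and sonicated. The tissue mixes cell types, so the share of cells with a site occupied and the occupancy per cell cannot be told apart. The groups were 1 library precipitated with a polyclonal antiserum to Xenopus TRs, from 5 µg of chromatin per reaction, and 1 input library with no antibody. Nothing in the labels says how many brains entered a library. With no replicates, no p-value was computed, and peaks within the list share 1 library.

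TRs are nuclear receptors that sit on DNA with or without hormone, recruit corepressors in its absence and coactivators in its presence. In tadpoles, thyroid hormone (TH) rises toward metamorphic climax and drives the remodelling of organs, the brain included. The stretch just upstream of a core promoter commonly holds binding sites for sequence-specific factors, whereas the start itself is occupied by the general transcription machinery. The deposited gene models give start, end and strand, so the summits below are placed relative to annotated gene starts, and exons and UTRs were not distinguished.

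Upstream flank summits crowded toward the TSS. The summit lay a median of 371 bp upstream, and 158 of 411 peaks (38.4%) lay within 300 bp. The count fell to 79 between 300 and 400 bp, 40 between 400 and 500 bp and 16 in the last 100 bp. Each 100 bp range here and below leaves out its lower end and includes its upper end. The distribution around the TSS was uneven. Between 200 and 300 bp there were 241 summits on the downstream side, a ratio of 1.53 to the upstream side, and between 500 and 1000 bp there were 326 downstream against 134 upstream, a ratio of 2.43. Beside the 411 upstream flank peaks there were 806 downstream flank peaks, 1.96 times as many, and 1736 core promoter peaks with a summit within 200 bp, 4.22 times as many. The nearest gene was on the plus strand for 192 peaks and on the minus strand for 219. Upstream flank peaks were the smallest share of peaks on chromosome 8, at 4.01% (2.64 to 5.82%), and the largest on chromosome 3, at 8.28% (6.34 to 10.6%), and 31 lay on unplaced scaffolds.

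**Figure D1:**
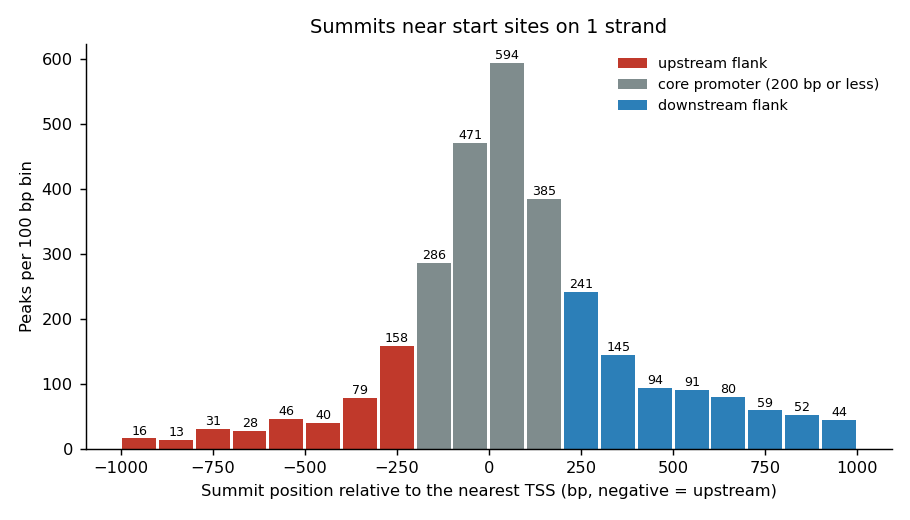
Number of peaks in 100 bp bins of summit position relative to the nearest TSS (x axis, bp, negative is upstream) for peaks whose start sites within 1000 bp are on 1 strand. Upstream flank bins fall from 158 next to the core promoter to 16 at the far end and stay below the downstream bins at the same distance.

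Most upstream flank peaks ended before the gene began. In 96 of 411 peaks (23.4%, 19.4 to 27.8%) the peak interval reached the TSS, and in 315 it stopped short of it. By the same measure 84.8% of core promoter peaks and 12.3% of downstream flank peaks covered the TSS. Peaks that reached the TSS had a median width of 658.5 bp and a median fold of 4.95. Those that stopped short had medians of 317 bp and 3.79. Reaching the TSS takes an extension of over 200 bp on that side, so this split selects wide and near peaks. The median distances were 276.5 and 396 bp. Fold was not compared at equal width or distance. The peak extended farther from its summit on the side of the gene in 241 of 411 cases (58.6%, 53.7 to 63.4%), with medians of 191 bp on the gene side and 170 bp on the other. That share was 60.5% for core promoter peaks and 51.7% for downstream flank peaks.

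The enrichment of upstream flank peaks was close to that of the whole list. The fold over background is the authors' value at the summit, the ratio of ChIP to background fragments after 1 is added to each. Its median was 3.94 (95% order-statistic interval 3.83 to 4.06; quartiles 3.36 to 5.00). The median was 4.22 (4.13 to 4.30) for core promoter peaks, 3.96 (3.88 to 4.07) for downstream flank peaks, 4.11 (3.96 to 4.22) for peaks 1 to 10 kb upstream and 4.06 for all peaks. The interval of upstream flank peaks thus lay below that of core promoter peaks and overlapped those of the downstream flank and of peaks farther upstream. A median of 26 ChIP fragments covered the summit, against 29 at core promoters and 24 on the downstream flank, over the same median background of 6.14 fragments as at core promoters. The median width was 370 bp, against 364 bp and 347 bp. Wide peaks were more frequent than in the list as a whole, with 40 of 411 (9.73%, 7.04 to 13.0%) at 800 bp or more against 4.63% of all peaks. That share was not counted for the other classes. Peaks with start sites on each strand within 1000 bp had a larger median width, 441 bp. The intervals of medians and shares treat the peaks of 1 library as independent draws and cover no variation between libraries. The difference between classes was not tested.

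**Figure D2:**
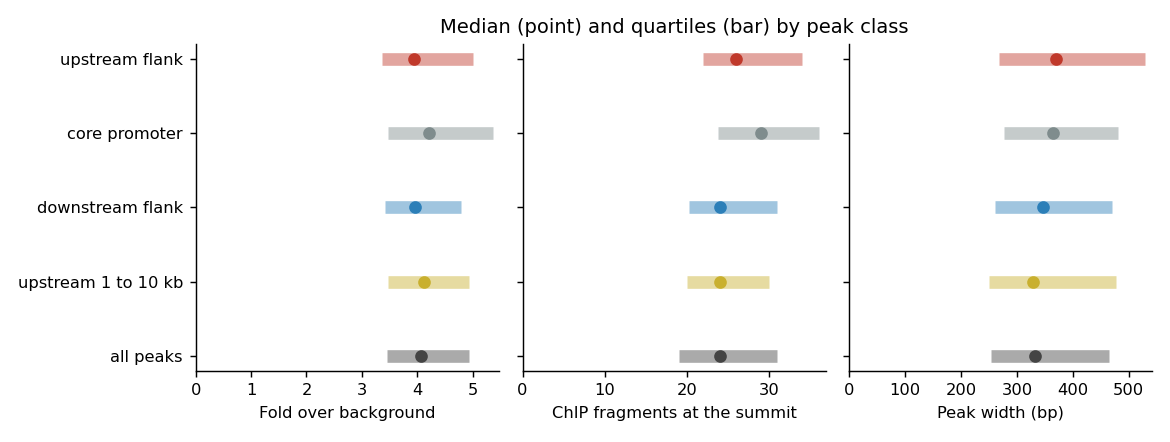
Median (point) and quartiles (bar) of fold over background, ChIP fragments at the summit and peak width in bp for 5 sets of peaks. Upstream flank peaks have a median fold of 3.94 against 4.22 at core promoters, and the highest upper quartile of width among these 5.

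Fold showed no steady course with distance. The median was 4.25 (3.88 to 4.62) between 200 and 300 bp, 3.68 (3.46 to 4.06) between 300 and 400 bp, 4.12 between 500 and 600 bp and 3.67 (3.26 to 4.91) between 900 and 1000 bp, and the intervals of these ranges overlapped. Across the 411 peaks, which share 1 library, Spearman's rho between distance and fold was -0.07 and between the local background and fold -0.39. The local background is the divisor of the fold, so a negative rho between them follows in part from the definition. Of the 54 peaks of fold 6 or more, 30 lay at 300 bp or less, where 38.4% of all 411 peaks lay. Such folds made up 19.0% of the peaks there and 3.23 to 13.0% in the 100 bp ranges farther out. Those 54 were 13.1% (10.03 to 16.8%) of upstream flank peaks, beside 11.8% of all peaks. At the weak end, 47 peaks had a fold under 3.

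**Figure D3:**
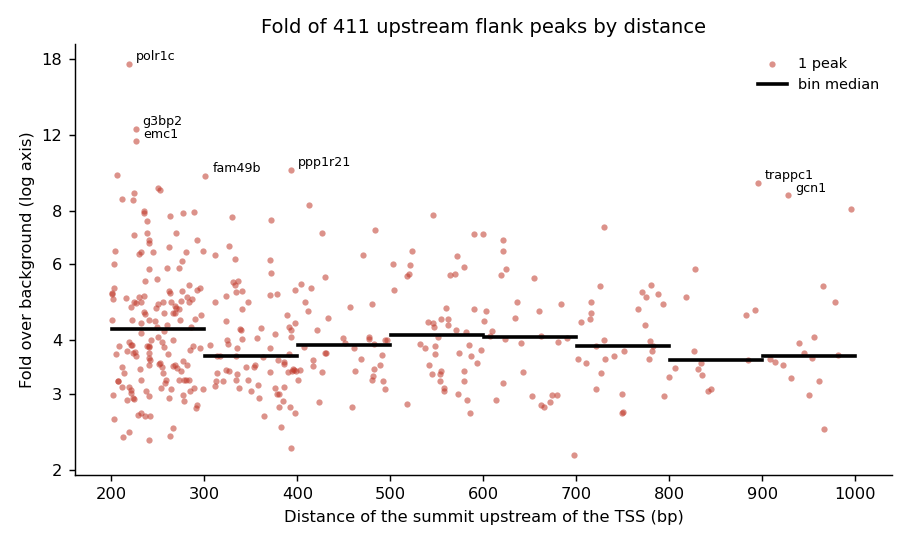
Fold over background (y axis, log scale) against the distance of the summit upstream of the TSS (x axis, bp) for the 411 upstream flank peaks, with the median of each 100 bp bin as a bar. Bin medians are 4.25 or less, while the highest points, polr1c, g3bp2 and emc1, sit at 219 bp or slightly farther.

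The strongest upstream flank peak stood before polr1c, which encodes a subunit shared by RNA polymerases I and III. It spanned 249669 to 250100 on chromosome 5, with its summit 219 bp upstream and reaching the TSS. It held 94 ChIP fragments over a background of 4.41, a fold of 17.6 (exact 95% Poisson interval of the ChIP fragments 14.2 to 21.5). The next was at g3bp2, a stress granule assembly factor (chromosome 1, 70074013 to 70074881), 226 bp upstream with a fold of 12.4 (9.88 to 15.3) from 82 fragments. The third, at emc1 of the ER membrane protein complex on an unplaced scaffold, lay 227 bp upstream with a fold of 11.6 (9.41 to 14.1) from 96 fragments. These 3 were the upstream flank peaks with a fold above 10, and the interval of polr1c overlapped that of g3bp2 but not that of emc1.

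The other 9 of the 12 strongest peaks with a named gene had folds below 10. The translation initiation factor gene eif5b (chromosome 2, 109091611 to 109092152) had a fold of 9.02 (7.05 to 11.4), 250 bp upstream. The Sec61 translocon gene sec61a1, which encodes the channel for proteins entering the ER, had 8.92 (7.04 to 11.2), 252 bp upstream on chromosome 4. The tethering complex gene trappc1 (chromosome 3, 131411550 to 131412078) had 9.28 (7.28 to 11.7) as far as 895 bp upstream, and gcn1, an activator of the eIF2 alpha kinase, had 8.68 (6.38 to 11.5) at 928 bp. The ESCRT gene chmp4b, which acts in membrane scission, had 8.49 (6.46 to 11.0) at 223 bp. The remaining peaks of the 12 strongest with a named gene were ppp1r21 (9.95), fam49b (9.65), figla (8.79), a folliculogenesis transcription factor gene, and sdhaf3 (8.53), an assembly factor of succinate dehydrogenase. The intervals of these 9 overlapped one another, so their order is not settled. Peaks at g3bp2, eif5b and sec61a1 were also paired with a neighbouring gene in the deposited list.

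Genes were then grouped by function. Of 5285 genes with any peak, 397 (7.51%) were nearest to an upstream flank summit, beside 32.8% for core promoters and 14.8% for the downstream flank. Of the 4822 genes with a usable name it was 367 (7.61%). These shares are the background for the counts below, in which each list is counted over its members that had a peak. The lists were not tested for enrichment.

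TH response genes had an upstream flank peak in 4 of 15 cases (26.7%, 7.79 to 55.1%), and a downstream flank peak in 5 of 15. The transcription factor gene klf9, an early TH target, had its peak 333 bp before the TSS (chromosome 1, 117607464 to 117607777), where 62 ChIP fragments gave a fold of 6.17 (4.75 to 7.88). The others were weaker. The H3K79 methyltransferase gene dot1l had 3.38 (2.51 to 4.45) at 643 bp, from 48 fragments over a background of 13.5. The transcription factor gene klf13 had 3.15 (2.05 to 4.67) at 358 bp, and the repressor gene bcl6 had 2.80 (1.93 to 3.93) at 459 bp. The median of 3.26 over the 4 peaks lay below the 3.94 of all upstream flank peaks. Among peaks above the median −log10 adjusted p-value of the whole list, called the stronger peaks below, the count was 2 of 15 (13.3%).

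Kruppel-like and Sp factors, zinc finger proteins that bind GC-rich promoter sequences, had an upstream flank peak in 5 of 10 genes (50%, 18.7 to 81.3%). Beside klf9 and klf13 these were klf7 (3.32, 835 bp upstream), klf2 (3.21, 313 bp) and klf6 (2.68, 1.87 to 3.74, 229 bp). In this family 6 of 10 genes were nearest to a core promoter summit. Apart from klf9, the folds of these genes lay below the median of the class. The share depended on the weaker peaks and on genes with several peaks: it was 2 of 7 (28.6%) among the stronger peaks and 1 of 6 (16.7%) among genes with a single peak.

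Lists of chromatin regulators were counted next. Nuclear receptor coregulators had upstream flank peaks in 5 of 24 genes (20.8%, 7.13 to 42.2%) and histone methylation enzymes in 7 of 32 (21.9%, 9.28 to 40.0%). On the downstream flank the coregulators had 3 genes of 24 and the enzymes 9 of 32. Among genes with a single peak the enzymes had 2 of 21 (9.52%). The corepressor subunit gene tbl1x had a fold of 5.54 (3.98 to 7.52), 249 bp upstream. The paralogous histone acetyltransferase genes ep300 and crebbp, which encode coactivators of nuclear receptors, had 4.72 (3.17 to 6.80) at 590 bp and 4.06 (2.74 to 5.80) at 477 bp. The corepressor scaffold gene sin3a had 4.03 (2.68 to 5.83), also at 477 bp, and bcorl1 had 3.88 at 548 bp. Among the enzymes, the H3K9 demethylase gene kdm3a had 7.60 (5.81 to 9.79) from 58 fragments, 372 bp upstream. The demethylase gene kdm2a followed with 5.85 (4.01 to 8.27), and the methyltransferase genes nsd3, nsd1, setd1b and kmt2a had 5.24, 3.22, 2.99 and 2.78. The maintenance DNA methyltransferase gene dnmt1 had 4.90 (3.24 to 7.15), 224 bp upstream on chromosome 3 (126597767 to 126598381), and was the single case among 11 genes of DNA methylation and demethylation.

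Further chromatin groups were picked after the members had been seen, so neither their counts nor their folds are independent of the data. Subunits of the Sin3 and NuRD deacetylase complexes had an upstream flank peak in 6 of 16 genes with a peak (37.5%). They were phf12 (8.23, 6.53 to 10.2), arid4a (7.81, 5.84 to 10.2), gatad2a (6.44), chd3 (6.13), ing1 (4.29) and sin3a, and their median of 6.13 over 7 peaks was above that of the class. Genes of histone acetyltransferase complexes had one in 5 of 17, with epc1 (6.30, 4.51 to 8.59) the highest, and jade1 and jade2 beside ep300 and crebbp. Groucho-type corepressors had one in 3 of 4 genes, tle4 (4.44), tle1 (3.18) and tle2 (2.66). A list of immediate early, bZIP and related genes had one in 7 of 17, among them elk1 (5.58), ier5 (4.93), junb (4.01) and jun (2.87). Downstream flank peaks were held by 5 of 16 Sin3 and NuRD genes and 6 of 17 acetyltransferase complex genes. They were also held by 2 of 4 Groucho-type genes and 3 of 17 genes of the immediate early list.

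Genes of 4 lists of basic cell machinery were nearly missing from the upstream flank, although many of them had peaks elsewhere. None of the 66 cytosolic ribosomal protein genes with a peak had one there (upper limit of the exact interval 5.44%), and the same held for the 44 respiratory chain and ATP synthase genes (8.04%) and the 27 proteasome genes (12.8%). Of 42 mitochondrial ribosomal protein genes, mrpl42 (2.92, 224 bp upstream) was the 1 case. Together the 4 lists held 1 of 179 genes (0.559%, 0.0141 to 3.07%), against 7.51% of all genes with a peak. The same 179 genes were nearest to a core promoter summit in 77 cases (43.0%, against 32.8% of all genes), to a downstream flank summit in 22 (12.3%, against 14.8%) and to a summit with start sites on each strand in 30 (16.8%, against 8.19%). Coregulators, histone methylation enzymes, Kruppel-like factors and TH response genes together held an upstream flank peak in 18 of 77 genes (23.4%, 14.5 to 34.4%). A downstream flank peak was held by 17 (22.1%, against 14.8% of all genes) and a core promoter peak by 26 (33.8%). The lists in each pool were chosen among those counted here, and the contrast depends on that choice. Splicing factors (3.41%), translation factors (5.56%), RNA polymerases (7.69%), chaperones (2.78%) and vesicle tethering and Rab trafficking genes (11.7%) were left out of the machinery pool. DNA methylation genes (9.09%) were left out of the regulator pool. The number of peaks per gene moved with the difference between the pools: 46.8% of the 77 genes had more than 1 peak, against 10.1% of the 179 and 17.9% of all genes. Its part in the difference was not tested. Among genes with a single peak, where the background was 5.85%, the 4 lists of machinery held 1 of 161. Summed over their lists, with a gene in several lists counted in each, the regulators fell from 21 of 81 to 6 of 43.

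**Figure D4:**
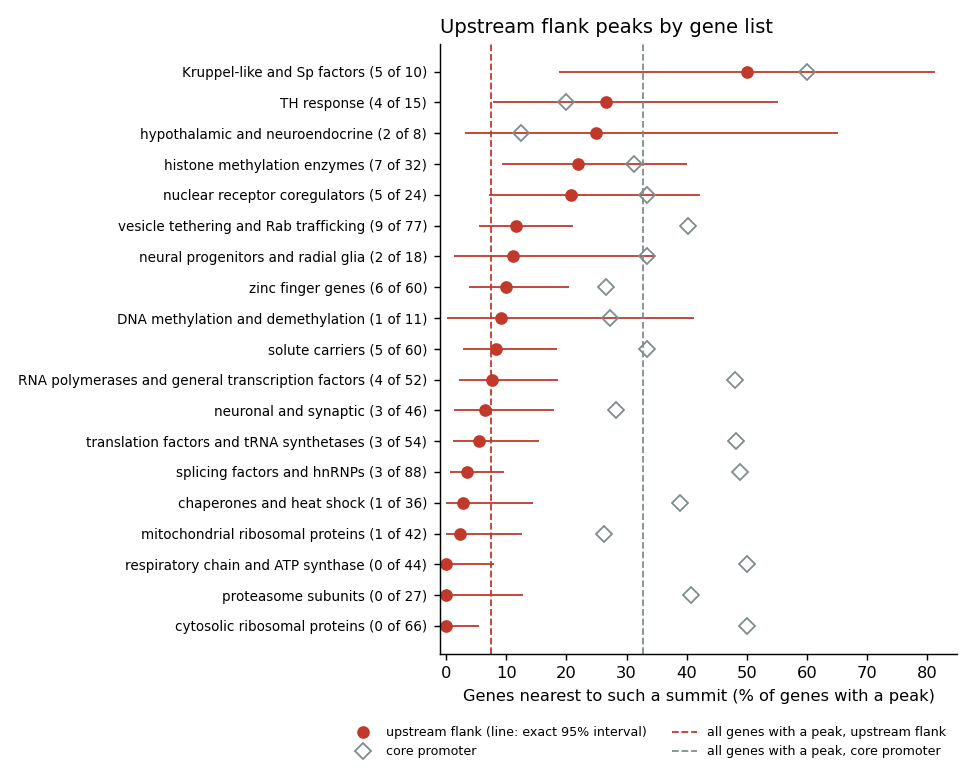
Share of genes with a peak that were nearest to an upstream flank summit (filled points, with exact 95% binomial intervals) or a core promoter summit (open diamonds) for lists with 8 or more genes with a peak; dashed lines give the shares over all genes with a peak, 7.51% and 32.8%. Cytosolic ribosomal, respiratory and proteasome genes lie at 0 for the upstream flank and at 40.7 to 50% for the core promoter.

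Other housekeeping groups were nearer to the background. RNA polymerases and general transcription factors had upstream flank peaks in 4 of 52 genes (7.69%), which beside polr1c were taf4 (5.06), the Mediator kinase module gene med13 (4.86) and gtf2a1 (3.46). Among genes with a single peak they had 1 of 45 (2.22%). Translation factors and tRNA synthetases had 3 of 54 (5.56%), all initiation factors, eif5b, eif1 (6.71, 4.92 to 8.96) and eif3g (5.89). With names as deposited that count was 5 of 55 (9.09%), above the background rather than below it. Splicing factors and hnRNPs had 3 of 88 (3.41%), hnrnpl (4.29), ddx54 (3.36) and rbm24 (2.39), and chaperones 1 of 36, hsp90ab1 (4.89). Vesicle tethering and Rab trafficking genes had 9 of 77 (11.7%, 5.49 to 21.0%). Beside trappc1 they included rab11a (6.44, 4.80 to 8.48), a GTPase of recycling endosomes, and rab39b (5.19). The list also counts the translocon gene sec61a1, which is neither a tethering nor a Rab gene. On the downstream flank the same list had 1 gene of 77. Zinc finger genes had 6 of 60, with znf865 (5.201) and znf521 (4.90) the highest, and solute carriers 5 of 60, with slc48a1 (5.48) and slc35f1 (4.34) the highest. Downstream flank summits were nearest to 14 of 60 zinc finger genes and 10 of 60 solute carriers.

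Upstream flank peaks of neuronal, neural progenitor and hypothalamic genes were few (3, 2 and 3), with median folds of 4.22, 4.54 and 4.86. The interval of each of these peaks included 3.94, the median of the class. Of 46 neuronal and synaptic genes with a peak, 3 (6.52%) had one on the upstream flank, the synaptic calcium sensor gene syt1 (4.62, 3.20 to 6.46), the neuronal RNA-binding protein gene elavl2 (4.22) and the adhesion gene ncam1 (3.87). With names as deposited the count was 1 of 42 (2.38%), and among the stronger peaks it was 3 of 22 (13.6%). Of the same 46 genes, 13 were nearest to a core promoter summit and 13 to a downstream flank summit. Neural progenitor genes had 2 of 18, pax6 (5.70, upper bound 8.83, from 18 fragments) and zic1 (3.38). Hypothalamic and neuroendocrine genes had 2 of 8, the homeobox genes dlx6 (5.35) and lhx2 (4.86 and 3.41 at 2 peaks). Downstream flank summits were nearest to 6 of 18 progenitor genes and 3 of 8 hypothalamic genes. Wider groups picked after the members had been seen gave 9 of 57 ion channel and glutamate receptor genes (15.8%), led by the AMPA receptor auxiliary subunit gene cacng2 (5.12) and the calcium channel gene cacna1e (5.04), both at over 700 bp. A group of leucine-rich repeat and synaptic adhesion genes, picked in the same way, had 9 of 26 (34.6%, 17.2 to 55.7%), led by lrrtm1 (5.24), nectin1 (4.91) and adgrl1 (4.67). On the downstream flank that last group had 10 of 26 and the ion channel and glutamate receptor group 10 of 57. The summits before pax6, cacng2 and lrrtm1 also lay inside the body of another gene with a peak. No upstream flank peak fell at a marker gene of endothelium and blood (1 with any peak) or of muscle (3 with any peak). No gene of the lists for oligodendrocytes, microglia, or liver and gut was matched to a peak. With names as deposited 1 oligodendrocyte gene had a peak, on the upstream flank, and 1 microglia gene had a peak elsewhere.

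MicroRNA hairpins made up a distinct set of nearest genes, where the annotated start is that of the hairpin and not of its primary transcript. Of 34 hairpin genes with a peak, 8 (23.5%) had one on the upstream flank, a group also defined after the members had been seen. Downstream flank summits were nearest to 5 of the 34. The peak 426 bp upstream of mir-9a-2, a brain microRNA of neural progenitors, spanned 1276 bp (chromosome 1, 170225473 to 170226748) and reached a fold of 7.10 (4.96 to 9.89). The peak before mir-124, a microRNA abundant in neurons, spanned 1709 bp on chromosome 6 with a fold of 5.85 (4.01 to 8.27). The peak before mir-125b-1 on chromosome 7 was the widest upstream flank peak, 2143 bp, at a fold of 3.996 (2.74 to 5.65). Those before mir-9-3, let-7i, mir-9a-1, mir-100 and let-7b had folds of 4.08, 3.89, 3.83, 3.63 and 3.05. In all, 18 peaks were nearest to a gene shorter than 300 bp, among them the U8 small nucleolar RNA gene with a fold of 7.95 (5.86 to 10.5) on chromosome 3.

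Genes with an upstream flank peak often had others. Of the 397 genes, 143 (36.0%, 31.3 to 41.0%) were paired with at least 1 more peak, against 18.8% (16.98 to 20.7%) of genes with a core promoter peak and 32.3% (29.0 to 35.7%) of those with a downstream flank peak. Among the stronger peaks alone the share for upstream flank genes was 16.96%, and the other classes were not recomputed. A further summit lay within 1000 bp for 105 of 411 upstream flank peaks (25.5%, 21.4 to 30.1%), against 5.93% of core promoter peaks and 20.0% of downstream flank peaks. A pair of a core and an upstream flank summit counts once in each class. The core class held 1736 peaks, so such pairs weigh less in its share. Their part in the difference was not tested. A core summit accompanied the upstream one at 40 genes and a downstream flank summit at 43. Of those 43 genes, 38 had no core summit, so that their start lay between a pair of summits. The peak intervals could still cover the start, as at ntrk2. At 83 genes there was a summit more than 1 kb from the TSS. Where a gene had a core summit, the upstream flank peak was the stronger in 22 of 40 genes, with a median ratio of folds of 1.05, and where it had a downstream flank summit, it was the stronger in 19 of 43.

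A pair of upstream flank peaks stood before 14 genes, of which 13 had a usable name. Their summits were 174 to 594 bp apart, with a median of 403 bp. At crebbp on chromosome 9 the folds were 4.06 at 477 bp and 3.08 at 845 bp, and at the acetyltransferase cofactor gene jade1 on chromosome 1 they were 3.10 at 289 bp and 3.68 at 741 bp. At ing1 they were 4.29 at 249 bp and 3.28 at 800 bp, and at med13 they were 4.06 at 357 bp and 4.86 at 793 bp. The peak farther from the TSS was the higher in 9 of 14 genes, and in 0 of 14 were the intervals of the 2 folds apart. The other named genes were adgrl1, hexim1, lhx2, nr2f1, ptma, sec31a, ubtf, ulk4 and znrf1.

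Genes with 5 or more peaks showed where the upstream flank peak ranked among them. At klf9 it was the second of 5, below the peak 5931 bp upstream (10.01, 8.06 to 12.3), with intervals that did not overlap, and above the one 135 bp downstream (4.84, 3.48 to 6.58), with overlapping intervals. At ntrk2, the receptor gene for brain-derived neurotrophic factor, the upstream flank peak at 503 bp was the highest of 6 (6.02, 4.38 to 8.09), and the peak 650 bp downstream was the lowest (2.39, 1.49 to 3.66). At zeb2, a zinc finger repressor gene, it was also the highest of 6 (5.70), with the next at 5.22 and overlapping intervals. At mir-9a-2 the upstream flank peak was the highest of 6, ahead of 6.18 at 4755 bp upstream, with overlapping intervals. At mir-9-3 the highest of 7 lay 9314 bp upstream (7.04), and the upstream flank peak at 956 bp had 4.08. At nr2f1, an orphan nuclear receptor gene with 7 peaks, the upstream flank peaks at 579 and 914 bp had 3.21 and 3.56, below 4.72 at 2034 bp upstream. At snd1, with 8 peaks, the peak 232 bp upstream (4.90) was the highest, with the next at 4.56 and overlapping intervals. Another snd1 peak, 319498 bp into the gene, was the upstream flank peak of lrrc4, a gene inside snd1 on the other strand. The further genes of this kind were ptma, adgrl1, pik3r3 and an unnamed gene of 68 bp, where no upstream flank peak was the highest. At ptma these peaks had 3.74 and 2.25, below 4.76 at 210 bp downstream. At adgrl1 they had 4.67 and 2.94, below 5.55 at 84722 bp into the gene. At pik3r3 the peak had 2.98, the lowest of 5, below 4.66 at 1077 bp downstream. At the unnamed gene they had 3.36 and 3.22, below 8.59 at 2410 bp upstream, with intervals that did not overlap.

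**Figure D5:**
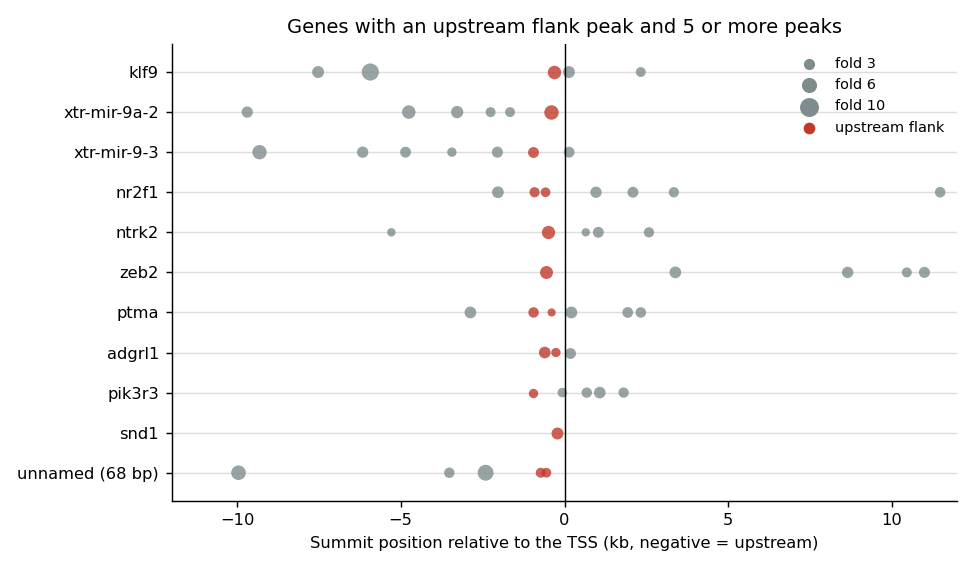
Summit positions relative to the TSS (x axis, kb, negative is upstream, window of 12 kb on each side) at 11 genes with an upstream flank peak and 5 or more peaks; point area is proportional to fold, and upstream flank peaks are in red. Some peaks of snd1, ntrk2, zeb2 and adgrl1 lie outside the window. At klf9 the strongest point lies 5.93 kb upstream, while at ntrk2, zeb2 and xtr-mir-9a-2 the red point is the largest.

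Most upstream flank peaks could be given to a single gene. In the deposited list 327 of 411 (79.6%) were paired with 1 gene and 84 with more, up to 10. Pairing with 1 gene was also usual for core promoter peaks (1319 of 1736) and downstream flank peaks (682 of 806). The summit of 28 peaks (6.81%, 4.57 to 9.70%) lay inside the body of another gene with a peak, on the same strand as the nearest gene in 10 cases and on the other strand in 18. A start site on the other strand lay between 1000 and 2000 bp away, just outside the rule, for 5 peaks. The nearest genes had a median length of 22049 bp, against 18767 bp for genes of core promoter peaks and 28355 bp for those of downstream flank peaks.

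Some peaks lay close to the limits of the rule on each side. Just inside the near limit of 200 bp lay peaks of rint1 (5.16), rsbn1l (5.12) and an unnamed gene (4.45), and just outside it, at 199 bp, those of nacc1 (4.90) and chsy1 (3.80). Just inside the far limit lay an unnamed gene on an unplaced scaffold (8.09, at 995 bp), prr7 (3.70, 981 bp) and itpkb (4.91, 978 bp), and just outside it nudcd3 (5.82, 1025 bp), ntrk3 (3.68, 1028 bp) and snap47 (5.92, 1028 bp). The lowest fold among named genes was 2.25 (1.45 to 3.36) at ptma, and the most ChIP fragments, 136, lay 380 bp upstream of tbc1d16 over a background of 47.9, the highest of the list, which gave a fold of 2.80 (2.35 to 3.31).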

How the data were processed

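The data were the authors' deposited list of peaks with paired genes, from 1 TR ChIP library set against its background. MACS2 2.2.6, deepTools 3.5.1, SAMtools 1.13 and BWA 0.7.17 are among the tools in the submitters' processing notes, which give no roles; the genome build and peak threshold are not given in the sources used here. The deposited enrichment is a linear fold ratio at the summit. The deposited −log10 p-values and the score derived from them were used for ranking. Genes were paired by the authors from 10 kb upstream to the gene end. Positions are 1-based, as deposited.

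The summit was the start plus the deposited offset. A whole number of ChIP fragments solved fold and p-value for all 6302 peaks (largest misfit 2.48e-05 in −log10 p), which was tested on simulated peaks. Fold intervals are exact 95% Poisson intervals of the ChIP fragments; the background's own error is not in them, and they cover counting error only and apply to peaks selected for being high. Shares have exact (Clopper-Pearson) intervals. Library depths are not known. Names came from the NCBI gene number where the description gave one (assembly UCB_Xtro_10.0, names only), otherwise from the deposited name where the description named a curated source; 463 of 5285 genes had no usable name. The members, the lists and the rule for named genes (the 12 highest folds, up to 4 per list, the peaks at the limits, genes with 5 or more peaks, and extremes) were chosen with earlier results of these data known. In some lists more genes than the rule gives are named, chosen after their values were seen. Sequences and motifs were not analysed here. Python 3.11.15, SciPy 1.17.1 and pandas 2.3.3 were used.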

Additional observations from a re-analysis of the deposited data

How the results depend on the processing

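No paired analysis was possible because there was 1 library per group. Motif settings were not run, as no sequence was used. Of 63 recomputed values, 38 stayed within 1.5 times the count or inside the interval of the reported value, and 25 did not. With the centre of the peak in place of the summit, 335 of the 411 peaks stayed members, the median width was 342.5 bp and the share reaching the TSS 14.2%. A near limit of 100 bp gave 697 peaks, a median fold of 4.09, a median distance of 238 bp, 44.8% reaching the TSS and 28.6% of genes with another peak. A near limit of 300 bp gave 253 peaks, 532 bp, 14.6% and 41.8%. A far limit of 2000 bp gave 465.5 bp and 18.6% reaching the TSS. Such limits change which distances can occur. Peaks above the median −log10 adjusted p-value of the list gave 231 peaks, a fold of 4.90, a width of 449 bp, 33.8% reaching the TSS and 16.96% of genes with another peak. The last share was counted over the remaining peaks alone and was not recomputed for the other classes. A fold of at least 4 gave 197 peaks, 5.04, 449 bp, 35.0% and 17.9%. Genes of the 24 lists with a member numbered 58, against 38 with that stronger part and 33 over genes with a single peak. The 4 lists of machinery held 0 of 133 genes in the stronger part (background 6.82%), and the lists of regulators 13 of 66. Shares of single lists rest on few genes and moved by over 1.5 times in further cases: among the stronger peaks splicing factors had 1 of 68 (1.47%), zinc finger genes 3 of 49 (6.12%) and hypothalamic genes 2 of 5 (40%), and among genes with a single peak hypothalamic genes had 0 of 3. With names as deposited, mitochondrial ribosomal proteins had 0 of 39. Assembled chromosomes alone, genes of 300 bp or more, and single-peak genes were settings chosen after seeing the data. The low ChIP fragment counts, a median of 26, limit the order of most folds.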
